A study of Mus musculus with 22 samples.

Results

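Interferon-stimulated genes are genes whose transcription rises when a cell senses interferon. The set described here was a list of 38 such genes, of which 35 reached 0.5 FPKM in at least 3 of the 22 libraries and were kept, out of 43430 genes in the tables. FPKM relates the fragments of a gene to its length and to the depth of the library. Oasl2, Mx1 and Rsad2 did not reach that level. By role, the 35 genes were 4 of the signalling pathway (Irf7, Irf9, Stat2, Usp18), 4 sensors of foreign nucleic acid (Zbp1, Ddx58, Ifih1, Dhx58) and 9 antiviral effectors (Isg15, Ifit1, Ifit3, Rtp4, Oas1a, Bst2, Samd9l, Cmpk2, Eif2ak2). A further 5 were interferon-inducible GTPases (Gbp2, Ifi47, Igtp, Irgm1, Irgm2), 5 were PARP proteins, ubiquitin ligases and nuclear body proteins (Parp9, Parp14, Dtx3l, Trim30a, Sp100), 3 served antigen processing (Psmb8, Psmb9, Tap1) and 5 were other inducible genes (Ifi27l2a, Xaf1, Ifi35, Lgals3bp, Shisa5).

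Type I interferons bind the receptor Ifnar1/Ifnar2, whose kinases Jak1 and Tyk2 phosphorylate Stat proteins, among them Stat2. These join Irf9 in a complex that binds a DNA element, the interferon-stimulated response element, in front of its target genes. Interferon gamma acts through Jak1 and Jak2 and a different element. In the thymus a low tonic interferon signal is known to reach developing thymocytes, and late in their maturation T cells raise several of these genes.

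RNA was sequenced from the CD45.1+ CD4+CD8+ fraction of the thymus, the stage at which T cells carry both coreceptors, in mice with intact or deleted E2a (gene symbol Tcf3), which encodes E protein transcription factors. All 22 libraries came from mice with the floxed allele, E2aF/F. The controls had no Cre named in their genotype. They comprised 3 libraries at 4 weeks of age as controls of the Vav line, 3 at 4 weeks as controls of the Lck line and 3 at 8 weeks as controls of the Vav line. The Vav knockouts were VavCre E2aF/F, with 3 libraries at 4 weeks and 3 at 8 weeks. The Lck knockouts were LckCre E2aF/F, with 3 libraries at 4 weeks. The transplanted group held 4 libraries from VavCre E2aF/F mice at 8 weeks of age that were sublethally irradiated and given wild-type bone marrow, 4 weeks before analysis. Vav drives Cre across the blood lineages and Lck in developing T cells. The labels do not say which cells of the transplanted mice carried CD45.1. They call the libraries replicates without naming animals, so p-values reflect library-to-library spread, which may be technical. In bulk RNA, fewer cells of a type and less RNA per cell cannot be told apart.

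Implied depth ran from 5.51 to 37.2 M reads per library, and the shallowest was Lck knockout 2. The targeted gene followed the labels: Tcf3 lay between 6.39 and 8.22 FPKM in the 9 control libraries and between 1.15 and 2.32 in the other 13. Cd4, a defining gene of the sorted stage, was present in every library, at 96.8 to 460 FPKM. By Xist and the Y-linked Ddx3y, the Vav groups at 4 weeks each held 2 female libraries and 1 male, and the Lck groups were male except 1 knockout. At 8 weeks all 3 controls were female and all 3 knockouts male, so that sex and genotype cannot be told apart there, and the transplanted group held 2 of each. Transplanted libraries 2 and 3 stood apart: library 2 had 2.81 FPKM of the stage gene Ccr9 against 43.1 to 82.7 in the other 3, and library 3 had 16.1 FPKM of the myeloid gene Lyz2 against 0.293 to 4.31. Counts of interferon-stimulated genes called against the 8-week controls are given with and without these libraries. The other lists and the comparison with untransplanted knockouts are given with all 4 transplanted libraries.

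The windows in front of these genes were read from RefSeq (GRCm38.p6), 250 bases before to 50 after each start, for the 28 of 35 genes with an entry. Rtp4, Zbp1, Ifi27l2a, Usp18, Dhx58, Parp9 and Parp14 were not in that table. The response element was searched on both strands as GAAA, any 2 bases, then GAAA again. It occurred in 15 of the 28 genes, or 53.6%, against 3.99% of 27025 genes with an entry. The interferon gamma element, searched as TTCNNNGAA, which reads the same on both strands, occurred in 8 of 28 genes against 9.55% of all. An E box of the kind that E proteins bind, searched as CAGNTG on both strands, occurred in 16 of 28 genes against 54.6% of all. Neighbouring matches can overlap and were then written as 1 run. The sequences below show the 250 bases before the start, with the response element in capitals, for the effector Isg15, the GTPases Irgm1, Igtp and Irgm2, and Lgals3bp, all of which were called higher in the Vav knockout at 4 weeks.
Isg15: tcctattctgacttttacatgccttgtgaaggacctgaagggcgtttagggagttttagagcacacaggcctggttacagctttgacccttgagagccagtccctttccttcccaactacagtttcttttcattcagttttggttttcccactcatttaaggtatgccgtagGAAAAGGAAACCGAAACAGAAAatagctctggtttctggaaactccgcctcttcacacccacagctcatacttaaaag
Irgm1: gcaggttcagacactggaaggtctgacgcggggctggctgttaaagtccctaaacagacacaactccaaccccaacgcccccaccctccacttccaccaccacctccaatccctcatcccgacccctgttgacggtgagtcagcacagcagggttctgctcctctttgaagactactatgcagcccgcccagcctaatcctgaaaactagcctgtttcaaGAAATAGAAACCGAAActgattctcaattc
Igtp: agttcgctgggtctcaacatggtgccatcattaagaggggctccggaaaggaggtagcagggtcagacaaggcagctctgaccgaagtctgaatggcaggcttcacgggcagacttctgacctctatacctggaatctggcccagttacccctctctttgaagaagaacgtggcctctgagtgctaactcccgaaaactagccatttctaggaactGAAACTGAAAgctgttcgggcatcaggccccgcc
Irgm2: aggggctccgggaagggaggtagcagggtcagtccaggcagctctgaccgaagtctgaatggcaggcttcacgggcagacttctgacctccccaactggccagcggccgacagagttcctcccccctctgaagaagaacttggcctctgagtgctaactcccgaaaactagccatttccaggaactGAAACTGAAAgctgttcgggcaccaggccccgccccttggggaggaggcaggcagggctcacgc
Lgals3bp: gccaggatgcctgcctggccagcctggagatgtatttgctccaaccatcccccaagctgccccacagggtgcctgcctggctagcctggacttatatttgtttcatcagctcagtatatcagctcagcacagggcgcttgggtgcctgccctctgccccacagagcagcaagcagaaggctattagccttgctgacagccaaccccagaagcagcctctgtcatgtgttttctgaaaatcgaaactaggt
The Isg15 sequence is chr4:156200819-156201068 on the minus strand and holds 3 overlapping matches. The Irgm1 sequence is chr11:48871421-48871670 on the minus strand, with 2 overlapping matches that begin 30 bases before the start. The Igtp sequence, chr11:58199306-58199555, and the Irgm2 sequence, chr11:58214727-58214976, both on the plus strand, hold 1 match each. The Lgals3bp sequence, chr11:118401960-118402209 on the minus strand, holds none of these letters. A match describes the sequence and does not show that a factor binds there.

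Igtp and Irgm2 overlap on the same strand of chromosome 11 in the GENCODE annotation of the same build, and Parp9 overlaps Dtx3l, and Psmb9 overlaps Tap1, on opposite strands. No source used here states strand use, so reads of these pairs may be shared. Oas1a, Ifi27l2a, Trim30a, Ifit1 and Ifit3 belong to families with similar copies, and their values are uncertain to that extent.

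Deletion of E2a with VavCre was accompanied at 4 weeks by higher levels of most interferon-stimulated genes. Of 28 that could be tested, 16 rose, 0 fell and 12 did not pass the test (limma, Benjamini-Hochberg adjusted p under 0.05). Over all 10828 genes tested, 7.63% were called higher and 6.08% lower. The median log2 fold change was 0.46 over the 28 genes and -0.0083 over all genes. In 22 of 28 genes every knockout library lay above every control, which held for 19.2% of all genes, and in 1 (Stat2) every knockout lay below. The test ran on log2(FPKM + 1) and kept genes that reached 1 FPKM in 3 libraries of the table. Xaf1 passed that filter only through the knockout libraries, and 15 of 27 were called higher without it. Irf7, Ifih1, Dhx58, Ifit1, Ifit3, Oas1a and Cmpk2 were too low to be tested at 4 weeks. Without control library 2 of this comparison 6 of the 16 calls were made, without control 3 it was 7, and without control 1 it was 10. Over all genes, 332 to 894 were called higher with a library left out, against 826 with every library. Irf9, Usp18, Zbp1, Rtp4, Ifi27l2a and Lgals3bp were called whichever single library was left out.

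Among the signalling genes, Irf9, the DNA-binding partner of the Stat dimer, had 1.84, 2.04 and 1.96 FPKM in the controls and 3.39, 3.10 and 3.33 in the Vav knockouts. Usp18, a protease that removes Isg15 from proteins and damps receptor signalling, had 4.62, 3.68 and 4.21 FPKM in controls and 6.43, 8.18 and 7.07 in knockouts. All 3 knockouts stood above all 3 controls for both genes. Irf9 rose by a log2 fold change of 0.54 (SE 0.066, adjusted p 0.00532) and Usp18 by 0.67 (SE 0.10, adjusted p 0.0105). Stat2 had a log2 fold change of -0.16 (SE 0.049, adjusted p 0.0743), with controls at 12.5 to 12.6 FPKM and knockouts at 10.7 to 11.4. It was called lower when libraries were scaled to the same FPKM sum or given array weights.

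Of the sensors, Zbp1, which recognises left-handed nucleic acid and can trigger cell death, had 4.07, 3.83 and 4.01 FPKM in controls and 7.79, 8.22 and 9.08 in knockouts. It rose by 0.91 on the log2 scale (SE 0.068, adjusted p 0.00146), with no overlap between the groups. Ddx58, the RNA helicase RIG-I, had 2.89, 2.33 and 2.22 FPKM in controls and 2.41, 3.40 and 2.92 in knockouts. The groups overlapped, and its change of 0.17 (SE 0.12, adjusted p 0.417) did not pass the test.

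Of the effectors that could be tested, 2 of 5 rose. Rtp4, an inducible chaperone of receptor proteins, had 1.58, 1.20 and 1.26 FPKM in controls and 4.20, 4.23 and 5.05 in knockouts. Isg15, a ubiquitin-like protein that is attached to other proteins, had 5.04, 4.51 and 3.71 FPKM in controls and 8.46, 7.18 and 10.3 in knockouts. For both genes the lowest knockout exceeded the highest control. Rtp4 rose by 1.23 (SE 0.098, adjusted p 0.00169) and Isg15 by 0.83 (SE 0.14, adjusted p 0.0141), although Isg15 was not called without control 2. The tethering protein Bst2 (0.53, adjusted p 0.172), the kinase Eif2ak2, also known as PKR (0.15, adjusted p 0.71), and Samd9l (0.14, adjusted p 0.381) did not pass.

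Of the GTPases that guard vacuoles against pathogens, 4 of 5 were called higher, and each of these calls was lost when any control was left out. Igtp had 10.8, 11.2 and 10.7 FPKM in controls and 15.2, 13.9 and 18.6 in knockouts, and rose by 0.49 (SE 0.10, adjusted p 0.0259). Irgm2 had 2.16, 1.83 and 1.66 FPKM in controls and 2.99, 2.49 and 3.43 in knockouts, and rose by 0.46 (SE 0.11, adjusted p 0.0436). Neither gene's groups overlapped, and with a library left out Igtp was called in 3 of 6 fits and Irgm2 in 1 of 6. Irgm1 rose by 0.44 and Ifi47 by 0.31, the latter called in 2 of 6 such fits, while Gbp2 had 0.36 with an adjusted p of 0.078.

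In the group of PARP proteins and ubiquitin ligases, Sp100, a component of nuclear bodies, had 12, 10.4 and 10.6 FPKM in controls and 15.3, 15.5 and 18.9 in knockouts. It rose by 0.55 (SE 0.096, adjusted p 0.0149), a call lost without control 2 or control 3. Trim30a, an inducible ligase family member, had 9.90, 6.95 and 7.59 FPKM in controls and 10.6, 14.1 and 11.2 in knockouts, without overlap, and its change of 0.50 (SE 0.15, adjusted p 0.0708) did not pass. Parp9, which forms a complex with Dtx3l, rose by 0.40 (adjusted p 0.0402) and kept the call in 1 of 6 fits with a library left out. Dtx3l had 0.23 (adjusted p 0.0899) and Parp14 had 0.22 (adjusted p 0.528).

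Of the antigen processing genes, Psmb9, a catalytic subunit of the immunoproteasome, had 6.53, 6.08 and 6.03 FPKM in controls and 7.82, 9.81 and 9.35 in knockouts, and rose by 0.47 (SE 0.087, adjusted p 0.0182). The call was made in 2 of 6 fits with a library left out, and lost without any of the controls or knockout 3. Psmb8, another catalytic subunit, had 57.8, 61.7 and 59.5 FPKM in controls and 62.8, 64.5 and 71.0 in knockouts. Its groups did not overlap, but the change of 0.14 (SE 0.065, adjusted p 0.194) did not pass. The peptide transporter subunit Tap1 had 7.81 to 8.40 FPKM in controls and 7.87 to 8.43 in knockouts.

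Among the other inducible genes, Ifi27l2a, a small hydrophobic protein, had 3.67, 3.04 and 4.32 FPKM in controls and 11.8, 9.50 and 9.21 in knockouts. Lgals3bp, a secreted galectin-binding protein, had 5.64, 4.86 and 5.11 FPKM in controls and 9.95, 10.4 and 9.31 in knockouts. All knockouts of both genes stood clear of the controls. Ifi27l2a rose by 1.26 (SE 0.13, adjusted p 0.00344) and Lgals3bp by 0.81 (SE 0.071, adjusted p 0.00205). Shisa5 rose by 0.63 (adjusted p 0.0118) and Xaf1 by 0.58 (adjusted p 0.0257), both lost without control 2 or control 3. Xaf1 was also lost without knockout 3 and with no filter. Ifi35 had 0.17 (adjusted p 0.133). A response element was found in 5 of the 11 genes called higher that had a promoter entry and in 6 of the 11 tested genes that were not called.

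**Figure D1:**
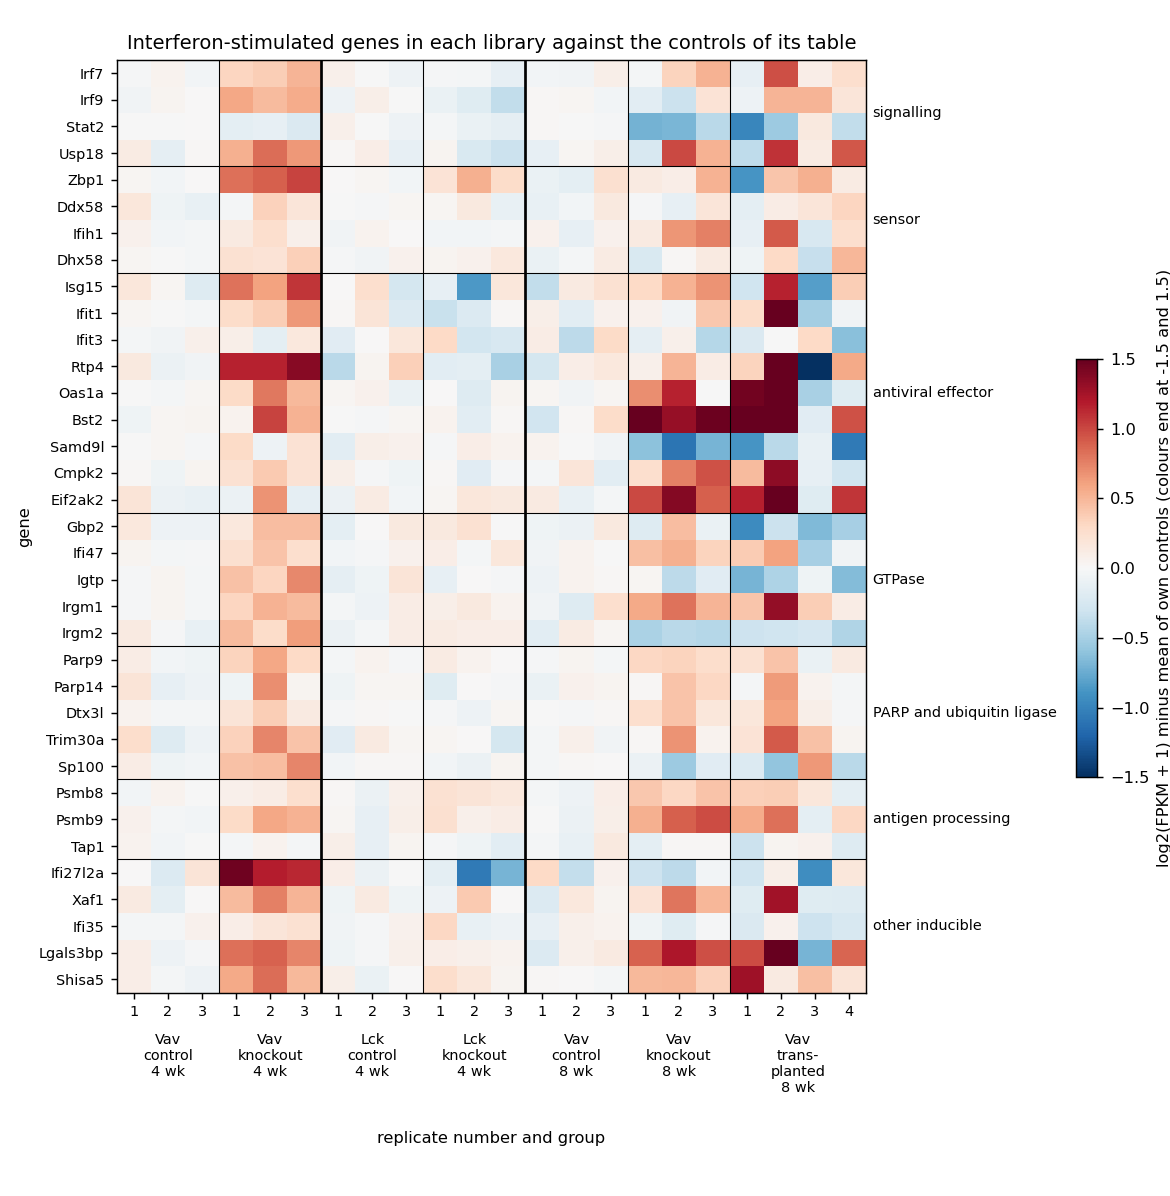
Each row is 1 of the 35 genes, grouped by role, and each column 1 library, with its replicate number and group below. Colour gives log2(FPKM + 1) minus the mean of the 3 controls of the same table, with red above and blue below. The 3 Vav knockout libraries at 4 weeks are red in most rows, the Lck knockouts are pale in most rows, and the 8-week and transplanted libraries hold strong red and strong blue rows side by side.

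Other genes of the pathway were read from lists of ligands, receptors, sensors, brakes and class I genes. The 18 interferon genes listed were at or near 0 in every library, the highest value being 0.0959 FPKM for Ifnz, and 14 of 18 were at 0 in all 22 libraries. Of 13 receptor, kinase, Stat and Irf genes tested at 4 weeks, 2 rose in the Vav knockout and 0 fell. Of these, Irf1, a transcription factor induced by interferon gamma and other signals, rose by 0.67 (adjusted p 0.00833), from 3.56, 3.58 and 3.64 FPKM to 5.42, 7.26 and 6.34. All knockouts exceeded all controls. The receptor genes Ifnar1 and Ifnar2 had changes of 0.00 and 0.06 and did not pass.

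Of 13 sensing genes and adaptors, 3 rose and 0 fell. Tmem173, which encodes the adaptor STING, had 3.44, 3.44 and 3.63 FPKM in controls and 8.83, 20.4 and 11.1 in Vav knockouts, a rise of 1.60 (adjusted p 0.0126). Cgas, whose product makes the ligand of STING, rose by 0.77 (adjusted p 0.0154) and the kinase Ikbke by 0.51 (adjusted p 0.0255). Of this list 12 genes reached 1 FPKM in the controls and 13 in the knockouts, so not every tested gene passed the filter through the controls. Cgas was the gene of these 13 that was not tested in the Lck comparison. Of 11 brakes on the response 1 rose, Socs3, an inhibitor of Jak kinases, by 1.62 (adjusted p 0.00251). Of 12 other class I presentation genes, 5 rose and 1 fell. B2m, the invariant chain of class I molecules, rose by 1.12 (adjusted p 0.00146), from 148, 175 and 163 FPKM to 348, 368 and 341. The transactivator Nlrc5 rose by 0.76 (adjusted p 0.0376), with all controls under 1 FPKM, H2-D1 by 0.60 and H2-K1 by 0.50, while H2-T22 fell by 0.47. Class I genes have close relatives, and their values are uncertain one by one.

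Markers of other cells moved in the same libraries. Of 12 markers of mature single-positive T cells tested, 11 were called higher in the Vav knockout at 4 weeks, with a median of 1.09, and 4 of these 12 were under 1 FPKM in every control and passed the filter through the knockouts. Without them 7 of 8 were called, with a median of 0.81. The summed level of the list's 13 genes was 65.4 to 69.3 FPKM in controls and 126 to 135 in knockouts. Ccr7 had 2.15 to 2.33 FPKM in controls and 3.57 to 4.66 in knockouts. Of 6 gamma-delta and innate-like markers tested 4 were higher, or 1 of 3 without those under 1 FPKM in every control, with sums of 28.7 to 31.0 FPKM in controls and 75.6 to 270 in knockouts. Of 12 double-positive stage genes 5 were lower and 1 higher, with sums of 4049 to 4143 FPKM in controls and 2891 to 3506 in knockouts. The part of these cells in the changes above was not tested. Of 5 plasmacytoid dendritic cell markers tested, Ly6d rose by 2.62, Pacsin1 fell by 0.36, Tcf4 fell by 0.35 and 2 did not pass. The sum of that list without Bst2 was 164 to 175 FPKM in controls and 517 to 633 in knockouts. A single gene reached 549 FPKM in the knockouts, so the sum does not describe the list as a whole. The median change of the 5 tested markers was -0.28. The defining gene Siglech was at most 0.00683 FPKM. The sum of 10 conventional dendritic cell markers was 0.887 to 1.18 FPKM in controls and 2.23 to 3.88 in knockouts, with H2-Ab1 higher by 0.97. H2-Ab1 passed the filter through the knockouts, since the highest value of that list in controls was 0.443 FPKM. The sum of 12 macrophage and granulocyte markers was 2.35 to 3.02 and 3.85 to 4.71, with Itgam higher by 0.90. Of that list 1 gene reached 1 FPKM in controls and 2 in knockouts.

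**Figure D2:**
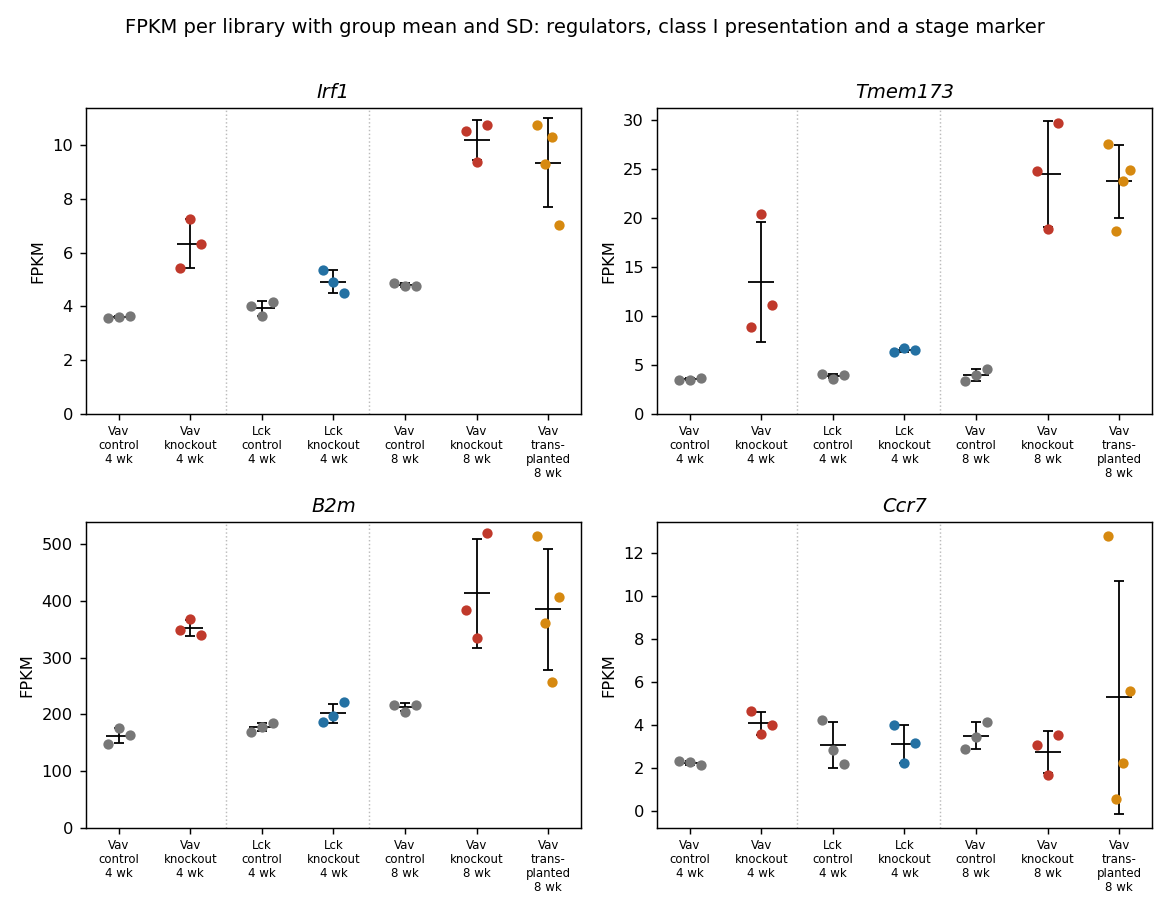
Points give the FPKM of each library for the regulators Irf1 and Tmem173, the class I chain B2m and the mature T cell marker Ccr7, by group, with the mean as a bar and the SD as whiskers. Dotted lines divide the 3 separately normalized tables. Irf1, Tmem173 and B2m stand above the controls of their table in all Vav knockout libraries at both ages, and Ccr7 reaches 12.8 FPKM in transplanted library 1.

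Deletion with LckCre at 4 weeks gave no call among the same genes. Of 28 tested, 0 were higher and 0 lower by limma, and at an unadjusted p under 0.05 there were 2 higher and 1 lower. Over all 10946 genes 0.201% were called higher and 0.804% lower at an adjusted p under 0.05, and no share is given for the unadjusted threshold. The median was 0.03 over the 28 genes and 0.02 over all. The libraries did not overlap in 2 genes above and 2 below, against 11.7% and 8.27% of all genes. Log2 fold changes ran from -0.63 to 0.34, and the count remained 0 under every alternative and with each library left out.

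At the ends of that range stood Ifi27l2a and Zbp1. Ifi27l2a had 7.38, 6.35 and 6.78 FPKM in the Lck controls and 6.05, 2.76 and 3.84 in the Lck knockouts, a change of -0.63, in which all knockouts lay below all controls. Zbp1 had 5.38, 5.48 and 5.19 FPKM in controls and 6.34, 8.18 and 6.71 in knockouts, a change of 0.34, in which all lay above. Neither passed the test. Rtp4 had 1.88, 2.92 and 3.90 FPKM in controls and 2.42, 2.43 and 1.72 in knockouts, and Lgals3bp had 6.25, 6.44 and 6.98 against 7.11, 6.96 and 6.81. Both overlapped. Psmb8 was higher in all knockouts, at 64.3 to 67.4 FPKM against 54.0 to 60.4, with an adjusted p of 0.181.

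In the Lck comparison 2 of 10 tested mature markers were called higher, and the sum of the list was 80.3 to 90.8 FPKM in controls and 82.5 to 101 in knockouts. Of the pathway, Tmem173 rose by 0.64 (adjusted p 0.0119), from 4.00, 3.57 and 3.91 FPKM to 6.33, 6.65 and 6.49, and H2-T22 fell by 0.63. The other receptor, sensing, brake and class I genes tested did not pass.

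Whether VavCre and LckCre differed in effect was tested as an interaction over 12 libraries. The effect was higher in the Vav line for 7 of 28 genes and lower for 0, against 1.65% of 10541 genes in each direction, or 3.3% in either. The 7 were Ifi27l2a (1.89, SE 0.28, adjusted p 0.00559), Rtp4 (1.49, SE 0.24, adjusted p 0.00907), Usp18 (0.84, SE 0.16, adjusted p 0.0192), Irf9 (0.76, SE 0.11, adjusted p 0.00571), Lgals3bp (0.74, SE 0.087, adjusted p 0.00204), Sp100 (0.58, SE 0.11, adjusted p 0.0202) and Zbp1 (0.57, SE 0.12, adjusted p 0.0236). Ifi27l2a, Rtp4, Irf9 and Lgals3bp were called with any of the 12 libraries left out, Usp18 and Sp100 in 7 of 12 such fits and Zbp1 in 5 of 12. The count was 4 without Vav control 2, without Vav control 3 or without Lck control 2. Over all genes, 93 to 231 had a higher Vav effect with a library left out, against 174 with every library. For the other 21 genes, among them Isg15 (1.10, adjusted p 0.11) and Igtp (0.54, adjusted p 0.0753), a difference between the lines was not called.

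Of the remaining genes with a called difference, Usp18 had 5.93, 6.30 and 5.28 FPKM in Lck controls and 6.04, 4.84 and 4.46 in Lck knockouts, Irf9 had 2.19, 2.57 and 2.34 against 2.13, 1.95 and 1.59, which did not overlap and lay lower, and Sp100 had 13.3, 13.8 and 13.9 against 13.2, 12.8 and 14.1. Of these 3, the Irf9 groups were apart and the other 2 overlapped. The pathway genes with a called interaction included Socs3 (2.02), B2m (0.94), H2-K1 (0.56) and H2-D1 (0.41), each with a higher Vav effect. Of 10 mature T cell markers 5 were called the same way.

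The control libraries of the 3 tables did not hold the same levels. All 3 Lck controls lay above all 3 Vav controls at 4 weeks in 20 of the 35 genes and below in 0, against 16.5% and 9.82% of the 12274 genes that reached 1 FPKM in 3 libraries. Ifi27l2a was at 3.04 to 4.32 FPKM in the Vav controls and 6.35 to 7.38 in the Lck controls, both E2aF/F at 4 weeks. The Lck knockouts, too, lay above the Vav controls in 19 of the 35 genes and below in 1, against 18.1% and 8.81% of all genes. The tables were normalized separately, and these levels are set side by side without a test. The interaction compares changes within each table, not levels between them.

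**Figure D3:**
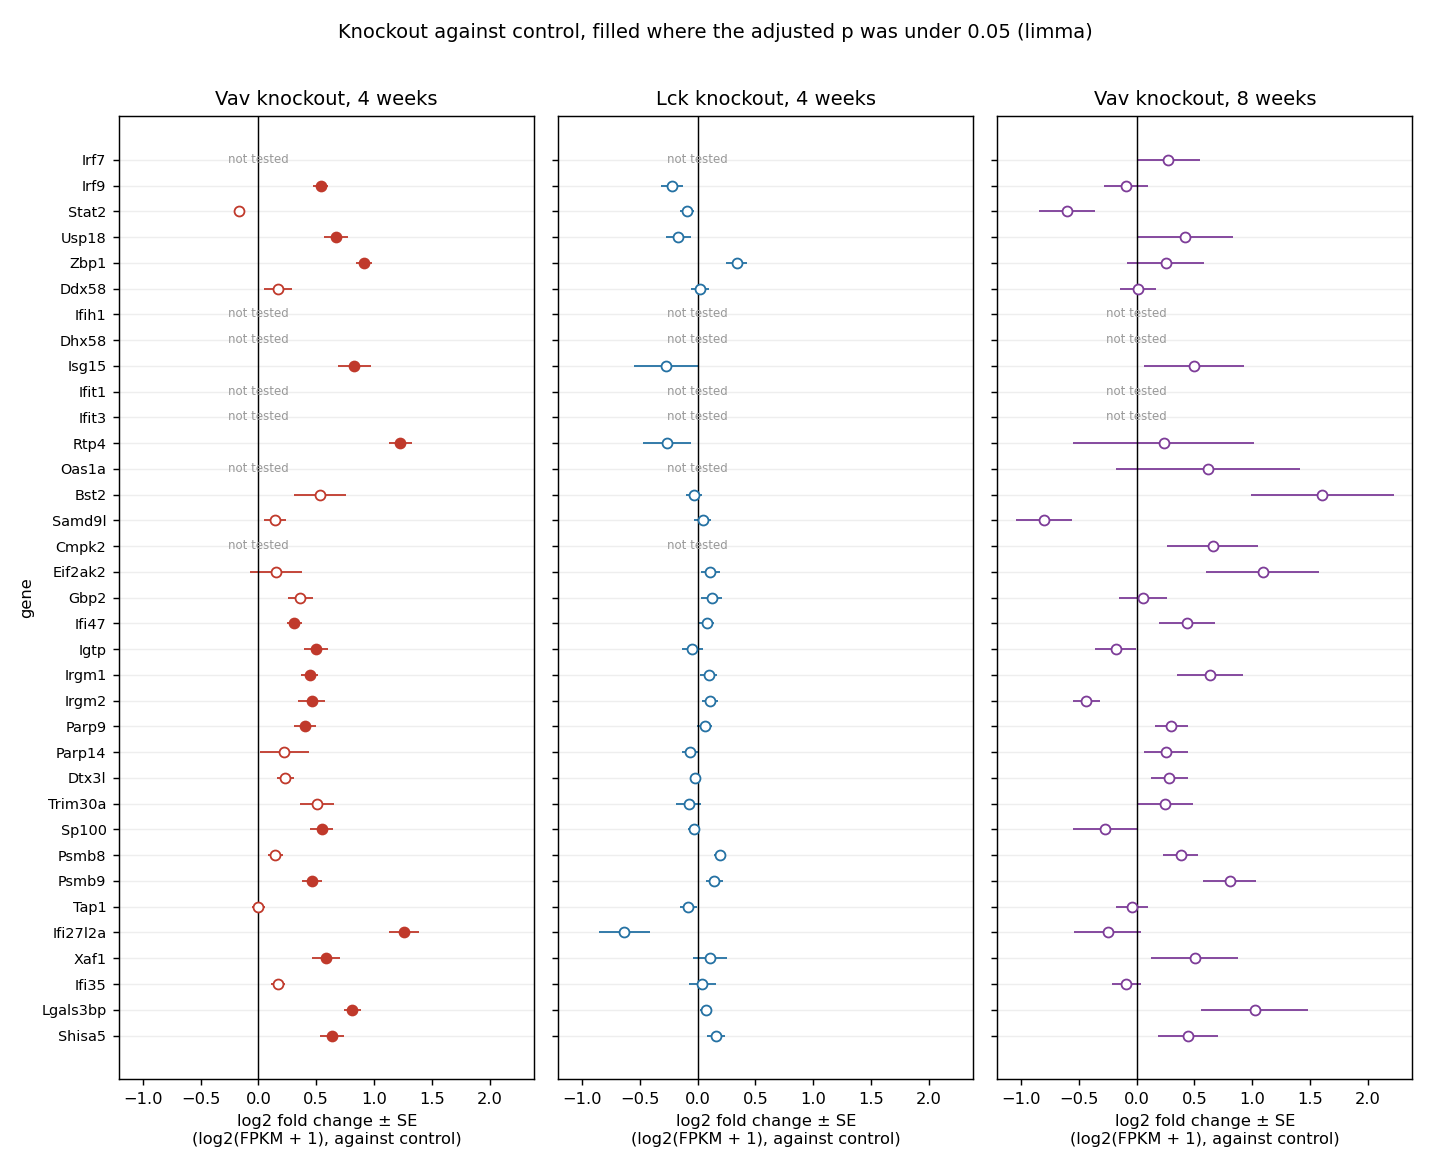
Points give the log2 fold change of each gene against the controls of its table, with SE as bars, for the Vav knockout at 4 weeks, the Lck knockout at 4 weeks and the Vav knockout at 8 weeks. Filled points passed the test (adjusted p under 0.05) and open points did not. There are 16 filled points in the panel on the left and 0 in the other panels, where the 8-week bars are the widest.

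At 8 weeks the Vav knockout held genes that stood far above and genes that stood below their controls. With the spread of all 10 libraries of the 8-week table, 0 of 31 tested genes were called in either direction by limma, and 3 were higher and 3 lower at an unadjusted p under 0.05. Over 11632 genes 4.65% were called higher and 4.45% lower at an adjusted p under 0.05, 9.1% in all. No share of all genes is given for the unadjusted threshold. The median was 0.27 over the 31 genes and -0.0049 over all. The libraries did not overlap in 13 genes above and 4 below, against 28.9% and 28.7% of all genes. Irf7, Oas1a and Cmpk2 passed the filter only through knockout or transplanted libraries. When only the 3 knockouts and 3 controls entered the fit, 11 genes were called higher and 3 lower, against 22.3% and 21.4% of all genes. Cmpk2 was among the 11, and 10 of 28 were called higher without the genes that passed the filter in this way. Without transplanted library 3 it was 4 higher and 3 lower, against 16.4% and 14% of all genes. Without library 2 it was 2 and 0, against 6.14% and 5.92%, and without library 1 it was 1 and 0, against 6.68% and 6.06%. Without library 4 it was 0 and 0, against 4.31% and 4.38%.

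Bst2, Eif2ak2 and Samd9l stood out at 8 weeks, and Bst2 was chosen for description after its values were seen. Bst2, which tethers virus particles to the cell surface, had 7.38, 9.30 and 11.3 FPKM in the 8-week controls and 40.8, 24.2 and 27.3 in the knockouts. Eif2ak2, which halts translation on binding RNA duplexes, had 2.17, 1.69 and 1.85 FPKM in controls and 4.77, 6.55 and 4.37 in knockouts. In both the lowest knockout stood far above the highest control. Their log2 fold changes were 1.60 (SE 0.62, adjusted p 0.126) and 1.09 (SE 0.49, adjusted p 0.173), and in the fit of the 6 libraries alone the adjusted p was 0.0024 and 0.00219.

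Lgals3bp had 6.99, 8.69 and 9.07 FPKM in controls and 16.0, 20.3 and 17 in knockouts, a log2 fold change of 1.02 (SE 0.46, adjusted p 0.177; 0.00153 in the 6 libraries alone). Psmb9 had 6.42, 5.98 and 6.90 FPKM in controls and 9.73, 12.8 and 13.7 in knockouts, a change of 0.80 (SE 0.23, adjusted p 0.0603; 0.00407 alone). Both groups of both genes were apart. Of the other genes called higher in the 6 libraries alone, Cmpk2 had 0.66, Irgm1 0.63, Ifi47 0.44, Shisa5 0.44, Psmb8 0.38, Parp9 0.30 and Dtx3l 0.28.

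Samd9l, an antiviral restriction protein, had 27.9, 26.8 and 25.9 FPKM in controls and 17.2, 12 and 16.2 in knockouts, all of them below the controls. Its change was -0.80 (SE 0.24, adjusted p 0.0682; 0.00432 in the 6 libraries alone). Stat2 had a change of -0.60 (adjusted p 0.137; 0.00406 alone) and Irgm2 of -0.43 (adjusted p 0.0524; 0.0133 alone), each with all knockouts below all controls. Irgm2 was at 3.17, 4.06 and 3.72 FPKM in controls and 2.35, 2.51 and 2.44 in knockouts.

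Of the genes called at 4 weeks, Ifi27l2a, Rtp4, Zbp1, Irf9, Usp18 and Igtp overlapped between genotypes at 8 weeks. In Lgals3bp, Parp9, Xaf1, Ifi47, Irgm1, Psmb9, Shisa5 and Isg15 every 8-week knockout still lay above every control. For Isg15 the margin was narrow, with the lowest knockout at 8.84 FPKM and the highest control at 8.41. In Irgm2 and Sp100 every knockout lay below every control. Ifi27l2a had 10.3, 6.18 and 8.61 FPKM in controls and 6.42, 6.01 and 7.92 in knockouts. Rtp4 had 2.90, 3.99 and 4.22 FPKM in controls and 3.91, 5.66 and 4.05 in knockouts. Both overlapped, as did Zbp1, at 6.60, 6.35 and 8.65 FPKM in controls and 7.91, 7.71 and 10.7 in knockouts. Irf9 had 3.09, 3.13 and 2.94 FPKM against 2.64, 2.24 and 3.67, and Usp18 had 5.15, 5.84 and 6.08 against 4.66, 12.2 and 8.59. Knockout library 1 was below the controls for Usp18 and library 2 the highest of the group.

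Because the 8-week controls and knockouts differed in sex throughout, a fit with sex as a term was added after seeing the data. There the term rests on the transplanted libraries alone, and 10 genes were called higher and 1 lower, Stat2, against 13.3% and 11.1% of all genes. In the fit of all 10 libraries without the sex term, 2 of 12 mature T cell markers were called higher. In that fit 1 of 6 gamma-delta and innate-like markers was higher and 3 of 12 double-positive stage genes were lower. Over all genes it called 4.65% higher and 4.45% lower. Without the markers under 1 FPKM in every control, it was 2 of 9 mature markers and 1 of 3 gamma-delta and innate-like markers. The sum of the double-positive genes was 4064 to 4409 FPKM in controls and 1679 to 2115 in knockouts. The part of these differences in the levels of the interferon-stimulated genes was not tested. Of the pathway, Tmem173 rose by 2.35 (adjusted p 0.000236) and Irf1 by 0.95 (adjusted p 0.00607) in the limma fit without the sex term. There Socs3 rose by 0.93 (adjusted p 0.0282) and Ptpn2 by 0.59 (adjusted p 0.0443).

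**Figure D4:**
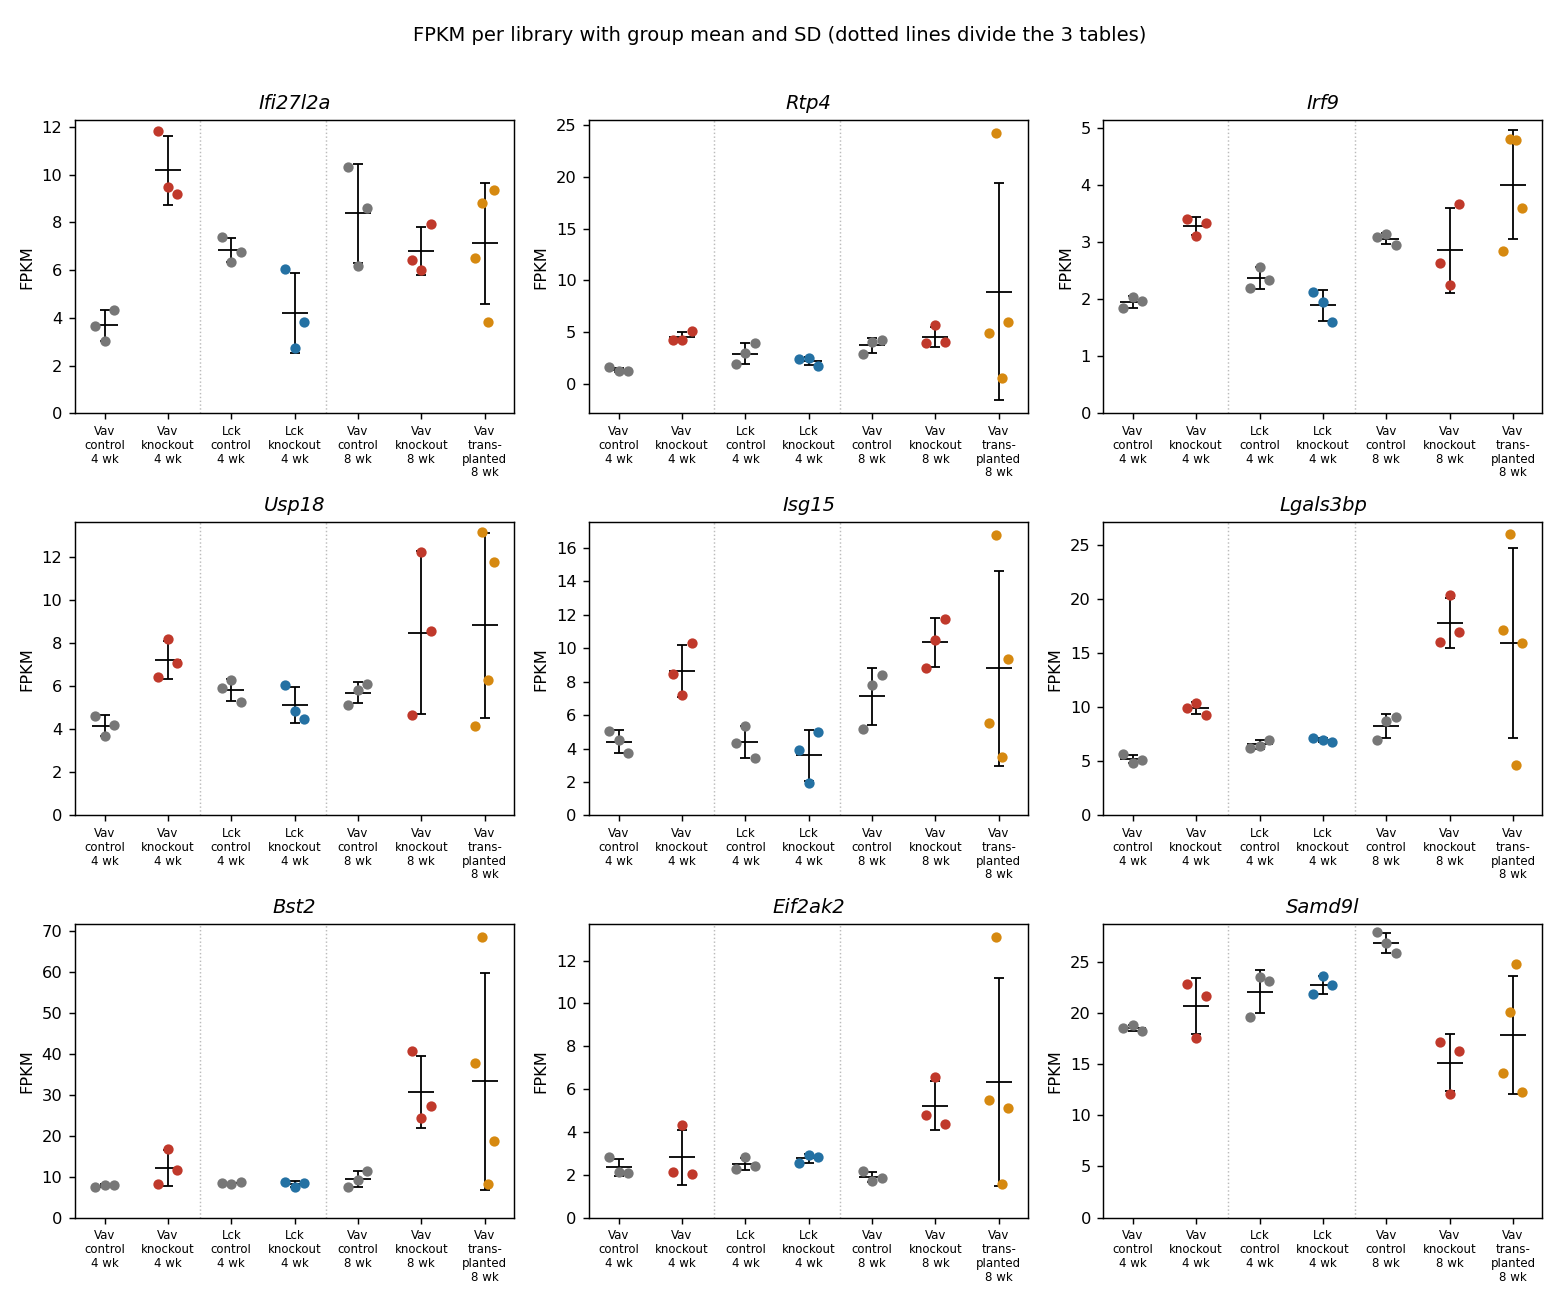
Points give the FPKM of each library for 9 genes by group, with the mean as a bar and the SD as whiskers, and dotted lines divide the 3 tables. Ifi27l2a, Rtp4, Irf9 and Usp18 separate Vav knockouts from controls at 4 weeks, Eif2ak2 and Samd9l at 8 weeks, and Isg15, Lgals3bp and Bst2 at both ages, Bst2 by a narrow margin at 4 weeks. Transplanted library 2 is the highest point of Rtp4, at 24.2, and Bst2, at 68.6.

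The knockout effect at 8 weeks was compared with that at 4 weeks as an interaction over the 12 libraries of the Vav line. It was lower at 8 weeks for 9 of 28 genes and higher for 1, against 9.37% and 8.87% of 10489 genes. The median of the difference was -0.22 over the 28 genes and -0.0172 over all. The 9 were Ifi27l2a (-1.51, SE 0.24, adjusted p 0.00384), Rtp4 (-0.99, SE 0.20, adjusted p 0.00991), Samd9l (-0.94, SE 0.17, adjusted p 0.00633), Irgm2 (-0.89, SE 0.15, adjusted p 0.00445), Sp100 (-0.81, SE 0.16, adjusted p 0.00954), Igtp (-0.67), Zbp1 (-0.66), Irf9 (-0.63) and Stat2 (-0.44). Ifi27l2a, Rtp4, Samd9l, Irgm2, Sp100 and Igtp were called with any library left out, Stat2 in 10 of 12 such fits, and Irf9 and Zbp1 in 5 of 12. Eif2ak2 was the 1 gene with a higher effect at 8 weeks (0.94, SE 0.29, adjusted p 0.0485), and that call was made in 2 of 12 fits with a library left out.

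Of these 10 genes, 6 had fitted changes of opposite sign at the 2 ages. Samd9l had a change of 0.14 at 4 weeks, from 18.5, 18.9 and 18.2 FPKM in controls to 22.8, 17.6 and 21.6 in knockouts, and of -0.80 at 8 weeks. Irgm2 changed by 0.46 and -0.43, and Sp100, at 16.7, 17.2 and 17.1 FPKM in 8-week controls and 15.9, 11.4 and 15 in 8-week knockouts, by 0.55 and -0.27. The others were Ifi27l2a (1.26 and -0.25), Igtp (0.49 and -0.18) and Irf9 (0.54 and -0.09), and the 8-week changes of all 6 did not pass the test. Sex was balanced between genotypes at 4 weeks and not at 8 weeks, so that a difference between ages and a difference between sexes cannot be told apart in this comparison. With sex as a term, which rests here on the 4-week libraries, 5 genes were called lower (Ifi27l2a, Rtp4, Samd9l, Irgm2 and Sp100) and 1 higher (Bst2), against 5.28% and 5.42% of all genes. Of 12 double-positive stage genes 9 had a lower effect at 8 weeks and 1 a higher one.

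The 8-week controls held higher levels than the 4-week Vav controls: all 3 lay above all 3 in 24 of the 35 genes and below in 0, against 17.1% and 19.8% of 12274 genes. Rtp4 was at 1.20 to 1.58 FPKM in the 4-week controls and 2.90 to 4.22 in the 8-week controls, and Ifi27l2a at 3.04 to 4.32 and 6.18 to 10.3. The 8-week knockouts lay above the 4-week knockouts in 7 genes and below in 3, against 18% and 21.2% of all genes. These levels come from tables normalized separately and carry no test.

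Transplanted mice were compared with both 8-week groups, which share libraries with each other's comparison. Against the controls, 0 of 31 genes were called either way by limma, against 4.59% higher and 4.6% lower over all genes, 9.19% together. At an unadjusted p under 0.05, 2 were higher and 4 lower, and no share of all genes is given for that threshold. All transplanted libraries lay above the controls in 1 gene, Shisa5, and below in 3, Gbp2, Samd9l and Irgm2, against 11.5% and 12.9% of all genes. Without transplanted library 3, 4 genes were called higher and 4 lower, against 18.1% and 14.7% of all genes. Without library 2 it was 0 and 0, against 4.07% and 4.35%. It was also 0 and 0 without library 1, against 3.62% and 3.51%, and without library 4, against 3.88% and 4%. With only the 2 groups compared it was 0 and 0, against 2.22% and 2.27%. Without libraries 2 and 3, a choice made after seeing the data, 3 were called higher (Bst2, Lgals3bp, Eif2ak2) and 5 lower (Stat2, Gbp2, Samd9l, Igtp, Irgm2), against 17.6% and 16.2%. Against the untransplanted knockouts 0 of 31 genes and 0% of all genes were called. At an unadjusted p under 0.05, for which no share of all genes is given, 0 were higher and 1 lower. Gbp2, a guanylate-binding GTPase, had 9.08, 14.9 and 9.78 FPKM in untransplanted knockouts and 5.0, 8.22, 6.29 and 7.18 in transplanted mice, all below, a change of -0.66 (SE 0.19, adjusted p 0.732), which was 1 gene against 2.53% of all genes below and 3.46% above.

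The 4 transplanted libraries differed among themselves. Library 2 held the highest value of 23 of the 35 genes and library 3 the lowest of 14. Library 1 held the lowest value of 9 genes and library 4 of 10. No share of all genes is given for these counts. Rtp4 had 4.89, 24.2, 0.530 and 5.94 FPKM in libraries 1 to 4, Bst2 had 37.8, 68.6, 8.09 and 18.7, and Eif2ak2 had 5.51, 13.1, 1.55 and 5.10. Library 3 was within or below the range of the controls for these 3 genes, and library 2 was above every other library of its table. Lgals3bp had 17.1, 26.0, 4.67 and 15.9 FPKM, Isg15 had 5.53, 16.8, 3.51 and 9.33, and Oas1a, which makes the activator of an RNA-cutting enzyme, had 2.80, 10.6, 0 and 0.230. The same 2 libraries were again the extremes. The order was not shared by all genes: Sp100 had 14.7, 11, 27.3 and 12.6 FPKM, highest in library 3, and Shisa5 had 51.6, 22.8, 28.7 and 23.9, highest in library 1.

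The libraries with extreme levels also stood apart in markers of other cells. Library 2 had 243 FPKM of Tcrg-C1 and 117 of Il7r, and library 3 had 68.4 of Igkc, 16.1 of Lyz2 and 389 of Cd4, whereas library 1 had 12.8 of the mature marker Ccr7. The sum of 9 gamma-delta and innate-like markers ran from 121 to 1632 FPKM in the group and from 33.6 to 45.9 in the controls, and that of 12 macrophage and granulocyte markers from 4.55 to 28.5 and from 2.52 to 5.97. That of 9 plasmacytoid dendritic cell markers ran from 381 to 1496 FPKM and from 193 to 214, with 1 of 5 tested markers higher (Ly6d, by 2.85). A single gene of that list reached 1452 FPKM, the median change of the 5 tested markers was -0.54, and Siglech was at 0 in all 4. Their part in the levels of the interferon-stimulated genes was not tested. Against the controls, Tmem173 rose by 2.32 (adjusted p 0.000154), Cgas by 1.36 (adjusted p 0.0399), Socs3 by 1.27 (adjusted p 0.00547) and Irf1 by 0.82 (adjusted p 0.00765) in transplanted mice. In the same lists Nmi fell by 0.50 (adjusted p 0.0213) and H2-T23 fell by 0.78 (adjusted p 0.0286). Of the sensing list, which holds Cgas, 13 genes were tested and 12 reached 1 FPKM in the 8-week controls.

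**Figure D5:**
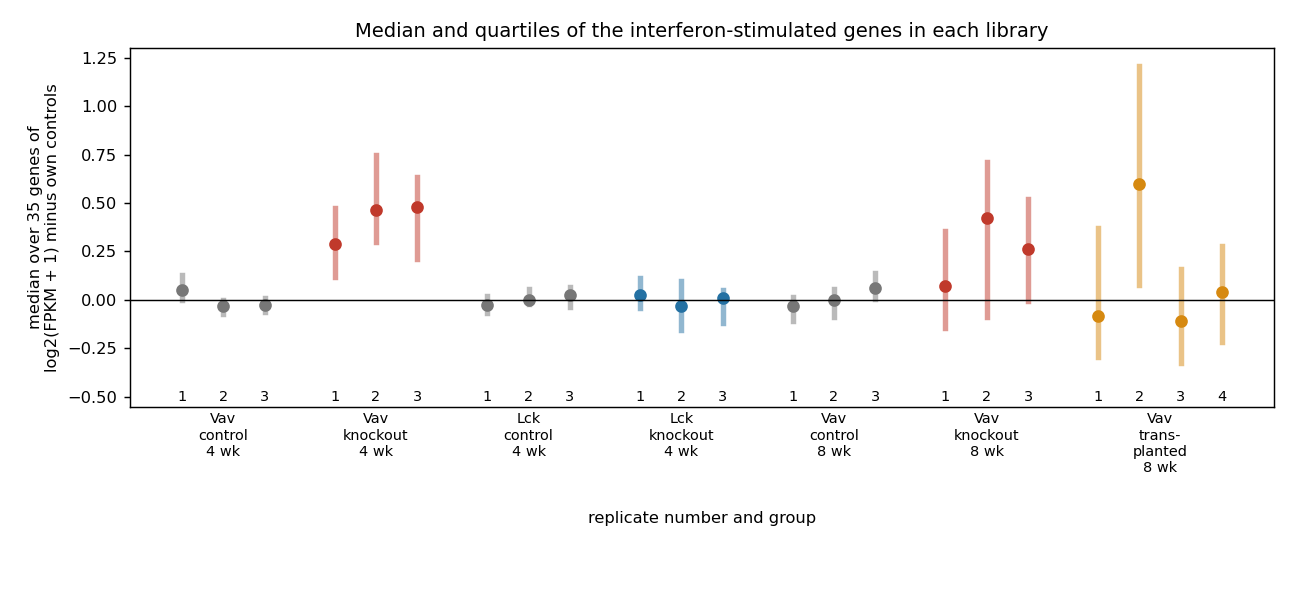
Each point is the median over the 35 genes of log2(FPKM + 1) minus the mean of the controls of the same table, for 1 library, and the bar spans the quartiles. The medians are 0.29, 0.46 and 0.48 in the 4-week Vav knockouts, -0.03 to 0.02 in the Lck knockouts, 0.07, 0.42 and 0.26 in the 8-week knockouts and -0.08, 0.60, -0.11 and 0.04 in the transplanted libraries.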

How the data were processed

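RNA of sorted mouse thymocytes was sequenced in 22 libraries of 7 groups, extracted with RNeasy and prepared with the NuGEN Ovation Ultralow kit, per the labels' protocols. FPKM for 43430 genes is the unit in which the authors deposited the data, in 3 separately normalized tables. Trimmomatic 0.33, STAR, HTSeq 0.6.1, DESeq2 and the build mm10 are named, with no role or order, per the submitters' processing notes. Gene lengths and strand use are not given in the sources used here. All value columns matched a library, and 42546 IDs matched GENCODE M21, in which the sensor listed as Mb21d1 is Cgas. Low values implied 5.51 to 37.2 M reads per library (M is 1e+06), but only 34.8 to 59.5% of them came out whole within 0.03, so no count model was used. No 2 libraries were identical, and the highest correlation between libraries was 0.997.

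Values were analysed as log2(FPKM + 1), which understates changes of low genes, with limma 3.58.1 (mean-variance trend, R 4.3.3) and Benjamini-Hochberg adjustment over all genes tested, at 0.05. Genes needed 1 FPKM in at least 3 libraries of each table used. Each fit held 6 libraries at 4 weeks, 10 at 8 weeks and 12 for an interaction. The code was tested on simulated data. The alternatives were a pseudocount of 0.1, other filters, scalings, variance models and library weights, the replicate number as a block, only the groups compared, and leaving out each library. A sex term, read from Xist, and leaving out transplanted libraries 2 and 3 were added after seeing the data. Described in every library were the 2 genes of each role with the largest change in the Vav knockout at 4 weeks and those called in the other comparisons, up to 6 each. Of the other lists, up to 4 called genes were named, and the controls, sex markers and genes such as Stat2, Bst2 and Gbp2 outside the rule were chosen after their values were seen. The genes and lists were chosen with earlier results of these data known. Promoter sequences came from RefSeq, GRCm38.p6. Some genes of the other lists are not reported here.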

Additional observations from a re-analysis of the deposited data

Results flagged for a closer look

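In the 4 transplanted libraries, 2 of the 35 genes had a library far from the other 3 by Dixon's criterion, in both cases library 2. Parp14, a PARP protein, was at 9.50 FPKM there against 5.62 to 5.99 in the others, and Xaf1, an inducible regulator of cell death, at 4.17 against 0.895 to 0.911. Chance gives such a gap in about 5% of groups.

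The knockout effect differed between the Vav and Lck lines by the interaction test for Ifi27l2a (1.89), Rtp4 (1.49), Usp18 (0.84), Irf9 (0.76), Lgals3bp (0.74), Sp100 (0.58) and Zbp1 (0.57), as Vav minus Lck log2 fold changes. It differed between ages for Ifi27l2a (-1.51), Rtp4 (-0.99), Samd9l (-0.94), Irgm2 (-0.89), Sp100 (-0.81), Igtp (-0.67), Zbp1 (-0.66), Irf9 (-0.63), Stat2 (-0.44) and Eif2ak2 (0.94), as 8-week minus 4-week log2 fold changes. In the latter, sex differed between the 8-week genotypes, and the 2 cannot be told apart.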

How the results depend on the processing

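No result reversed. In the Vav knockout at 4 weeks the 16 calls became 10 with a filter at a mean of 5 FPKM and 6 to 17 with a library left out, and 1 gene was called lower, against 0, after scaling to the same FPKM sum or with array weights. In the 8-week knockout, 0 higher and 0 lower became 10 and 3 with array weights, 10 and 1 with the sex term, and 11 and 3 with only the compared groups. Over all genes these settings called 24.8% higher and 24.8% lower, 13.3% and 11.1%, and 22.3% and 21.4%, in that order. Same-sum scaling gave 1 lower, and leaving out a library gave 0 to 4 higher and 0 to 3 lower. With a library left out, 133 to 1902 of all 11632 genes were called higher and 165 to 1623 lower. In transplanted mice against controls, 0 and 0 became 3 and 3 with array weights, 5 and 1 with the sex term and 3 and 5 without libraries 2 and 3, and 0 to 4 in each direction with a library left out. Over all genes the first 3 of these settings called 14.2% and 12.3%, 11.7% and 10.2%, and 17.6% and 16.2%. With a library left out, 148 to 2105 of all genes were called higher and 180 to 1708 lower. The 7 genes with a higher Vav than Lck effect became 11 with array weights and 4 to 9 with a library left out. Of the effects at 8 against 4 weeks, the 1 higher became 0 with a filter of 0.5 FPKM, with no filter or with same-sum scaling, 2 with array weights, and 0 to 2 with a library left out. The 9 lower became 5 with the sex term and 6 to 9 with a library left out. The cause of these shifts was not tested. Same-sum scaling moved the share of higher calls over all genes from 55.7 to 37.7% in the Vav comparison at 4 weeks, from 20 to 6.38% in the Lck comparison and from 48.6 to 32.1% between ages, and the median of all genes at 8 weeks to -0.12. Over all genes, the 826 higher calls at 4 weeks ranged from 332 to 1182 across the alternatives and the 658 lower calls from 256 to 1045. The 174 genes with a higher Vav than Lck effect ranged from 75 to 355. Between ages, the 930 higher calls ranged from 508 to 1313 and the 983 lower calls from 501 to 1480.

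Deviations of same-numbered libraries correlated at -0.058, -0.109 and 0.070 in the Vav table at 4 weeks. In the Lck table they correlated at 0.181, -0.014 and 0.030. Between the 8-week controls and knockouts it was 0.047, 0.067 and 0.059, where differently numbered libraries reached at most 0.011. Same-numbered pairs with transplanted libraries ran from -0.077 to 0.124. These values do not settle whether replicate numbers pair the libraries. With the replicate block, 10 genes were called higher in the Vav knockout at 4 weeks, and 3 had a higher Vav than Lck effect (Irf9, Ifi27l2a, Lgals3bp). With it 0 had a higher and 6 a lower effect at 8 weeks. No share of all genes is given for the block, so whether the fall in calls is particular to these genes was not tested.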

Other observations

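The 3 listed genes that stayed under 0.5 FPKM in most libraries had their highest values in transplanted library 2: Mx1, a GTPase that blocks viruses, at 5.38 FPKM, Oasl2, a relative of the oligoadenylate synthetases, at 2.28, and Rsad2, which makes a chain-terminating nucleotide, at 0.547. In the other transplanted libraries Mx1 was at 0.405, 0.287 and 0.131 FPKM. In the 8-week groups it was at 0.00749 to 0.0578 in controls and 0.232 to 0.305 in knockouts. These genes were not tested.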
